A study of Mus musculus with 20 samples.

Results

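Myotubes given 1000 µM hydrogen peroxide (H2O2) for 2 h were compared with untreated myotubes over all genes of the array. The arrays were chosen by their titles, which gave 1000 µM for 4 arrays and 0 µM for another 4, so 8 of the 20 arrays of the series entered the comparison. C2C12 cells, an established mouse line, are muscle precursors that leave the cell cycle in low serum and fuse to form myotubes with many nuclei. All groups were differentiated for 96 h and were then kept for 2 h in DMEM with 0.5% heat-inactivated horse serum, which the untreated cells received with no H2O2. The 4 arrays at 100 µM, from cells handled in the same way, served to show where a change at 1000 µM differed from that at the next lower dose. The arrays are called independent replicates in the design text, but nothing states that they came from separate cultures, so the p-values cover the variation among these arrays alone, part or all of which can be technical.

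H2O2 crosses membranes and oxidises cysteine thiols of enzymes, phosphatases and transcription regulators. In many cell types it sets off several transcript programmes: the immediate early genes downstream of MAP kinases, the antioxidant genes of the transcription factor NRF2, the DNA damage targets of p53, the ATF4 genes of the integrated stress response, and the heat shock genes of HSF1, which respond to damaged protein. In muscle, H2O2 is produced during contraction and inflammation, and high doses injure cells. A transcript level after 2 h depends on both synthesis and decay, and in bulk RNA fewer cells of a type and less RNA per cell cannot be told apart.

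RNA was hybridised to Affymetrix Mouse Genome 430A arrays, on which a gene is read by one or several probe sets of short oligonucleotides. Signals are linear intensities scaled to a trimmed mean of 500 on each array. Differences are of log2 signal, 1000 µM minus untreated, ± standard error, with n = 4 arrays per group, and adjusted p-values are from limma with Benjamini-Hochberg adjustment over the 14387 probe sets tested. A probe set or gene was called at an adjusted p under 0.05, and each gene was read from the brightest of its probe sets on average, which left 8163 genes. The precision is limited by the number of arrays.

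The arrays whose titles give replicate 1 stood apart from replicates 2 to 4. On the first principal component of the 8 arrays, which held 39.9% of the variance, untreated replicate 1 lay at 52.3 and 1000 µM replicate 1 at 15.4, and the other 6 lay between -19.4 and -2.35. The second component held 28.8% of the variance and separated the untreated arrays, at -23.9 to -3.38, from the 1000 µM arrays, at 10.1 to 35.4. Each group holds 1 array numbered 1, so a term for replicate 1 in the fit left every difference equal to the difference of the group means and changed only its error.

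With that term, 1024 probe sets were higher at 1000 µM (7.12% of those tested) and 2239 were lower (15.6%). In genes, 621 were higher (7.61%) and 1185 lower (14.5%), 22.1% in all. The arrays of the groups did not overlap, with 1000 µM higher, in 568 genes (6.96%) and, with 1000 µM lower, in 1066 (13.1%). From replicates 2 to 4 only, 697 probe sets were higher and 1831 lower, and without the term 354 were higher and 1220 lower. In the deposited scaling, 51 called genes were over 1.75-fold higher (0.625%) and 85 over 1.75-fold lower (1.04%). The excess of lower genes turned around under the other scalings described below, with 92 higher and 40 lower after centring on the median of all probe sets, 72 and 48 after centring on that of tested probe sets, and 72 and 44 after quantile normalisation. In the deposited scaling, 39 called genes were over 2-fold higher and 43 over 2-fold lower, and over 4-fold the counts were 11 and 2.

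The split between higher and lower calls depended on the scaling. The median signal of an array was 7.47 ± 0.0498 (SD, n = 4) on the log2 scale in untreated cells and 7.26 ± 0.0204 (SD, n = 4) at 1000 µM, and the groups did not overlap (difference -0.203, exact two-sided permutation test, p = 0.0286, adjusted p = 0.0477 over 5 array measures; 0.0286 is the smallest p that 4 against 4 arrays allow). The brightest probe sets moved the other way: with tested probe sets in 5 equal bins by mean signal, the median difference was 0.113 in the brightest bin and -0.175 in the dimmest. Of all calls, 68.6% were lower with the deposited trimmed-mean scaling, 17.6% with arrays centred on the median of all probe sets, 31.2% with the median of tested probe sets and 58.3% with quantile normalisation. Relative to the first, these scalings moved the median difference of all genes by 0.203, 0.126 and 0.0702. The gene counts below therefore also give the genes called in the same direction under all 4 scalings, which were 306 higher (3.75%) and 330 lower (4.04%), from 476 probe sets higher (3.31%) and 652 lower (4.53%). The 3′ to 5′ log2 ratio of Gapdh probe sets, a measure of RNA integrity, differed by 0.0323 (exact permutation test, p = 0.0857) and that of beta-actin by 0.0627 (p = 0.543). Their part in the shift was not tested.

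**Figure D1:**
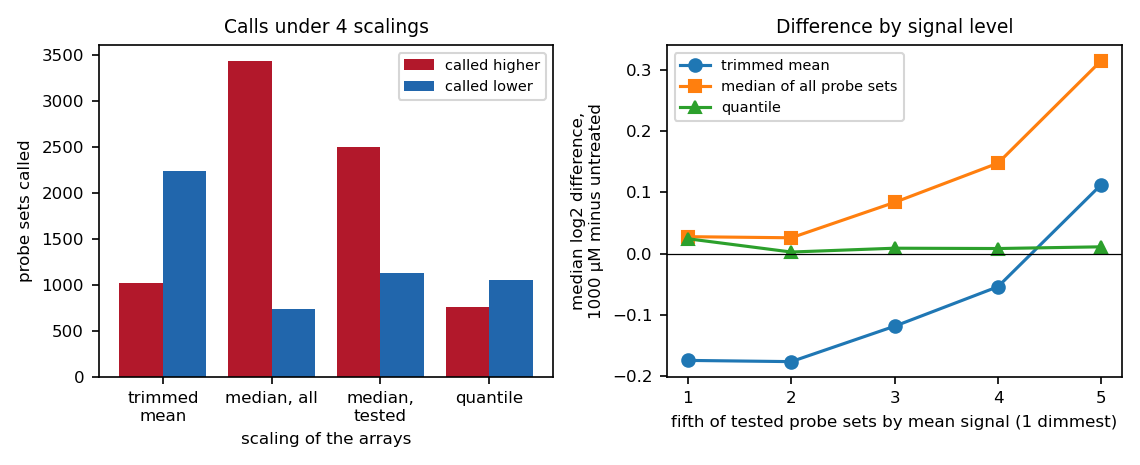
Left, number of probe sets called higher (red) and lower (blue) at 1000 µM than in untreated myotubes under 4 scalings of the arrays; right, median log2 difference within 5 equal bins of tested probe sets ordered by mean signal, under 3 of these scalings. Lower calls outnumber higher ones with the trimmed mean (2239 against 1024) and the reverse holds with the median of all probe sets (734 against 3433), and the difference climbs with signal except after quantile normalisation.

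Transcription factor genes of the immediate early response were among the largest rises. AP-1 is a dimer of FOS, JUN and ATF family proteins. Of 8 AP-1 genes tested, 4 were higher (50%, against 7.61% of all genes), all under all 4 scalings. Another 1 was lower (12.5%, against 14.5% of all genes), not under all 4. The median difference of the 8 was 0.48 against -0.05 over all genes. Fos signals were 372, 364, 387 and 395 in untreated cells and 1580, 1740, 1360 and 1490 at 1000 µM, a difference of 2.02 ± 0.19 (adjusted p = 3.22e-07). Fosb signals were 63.1, 37.9, 37.6 and 37.5 in untreated cells and 371, 355, 327 and 328 at 1000 µM, a difference of 3.01 ± 0.23 (adjusted p = 1.39e-08). In both genes every treated array was above every untreated one, but no untreated array reached the 40th percentile for Fosb, so the size of its rise depends on a dim signal. Jun went from 1540, 1840, 1990 and 1950 to 3030, 3770, 3620 and 3510 (0.93 ± 0.07, adjusted p = 1.18e-08). Fosl1, a target of AP-1 itself, was called at 0.65 ± 0.16 (adjusted p = 0.00666), but the replicate 1 pair went the other way at -0.20, its arrays overlapped, and without the term for replicate 1 the adjusted p was 0.119. Junb was not called (0.31 ± 0.12, adjusted p = 0.065). It was under both median scalings (adjusted p = 0.00879 and 0.0169) but not with quantile normalisation (adjusted p = 0.146).

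The levels of Fos, Fosb and Jun were also above those at 100 µM. Fos was 1.96 ± 0.19 higher at 1000 than at 100 µM (adjusted p = 9.3e-07), Fosb 2.28 ± 0.23 (adjusted p = 1.36e-06) and Jun 0.84 ± 0.07 (adjusted p = 1.08e-07). Over all genes, 242 were higher at 1000 than at 100 µM (2.96%) and 702 lower (8.6%).

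Atf3, which codes for a stress-induced repressor that binds AP-1 and CRE sites, went from 99.1, 103, 56.4 and 53.9 to 932, 715, 644 and 705 (3.31 ± 0.31, adjusted p = 3.59e-07). Only 1 of the 4 untreated arrays reached its array's 40th percentile, so the size of this rise depends on a dim signal. The 100 µM arrays lay between, at 458, 286, 298 and 194.

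Other early genes followed in part. Of 24 EGR, NR4A, IER and related genes tested, 10 were higher (41.7%, against 7.61% of all genes) and 3 lower (12.5%, against 14.5%). All 13 were called under all 4 scalings, and the median was 0.30. Nr4a1, an orphan nuclear receptor, rose from 242, 367, 303 and 325 to 1010, 1350, 1270 and 1250 (1.99 ± 0.21, adjusted p = 1.22e-06). Btg2, an antiproliferative cofactor of mRNA deadenylation and also a p53 target, rose from 515, 497, 421 and 489 to 994, 1500, 1420 and 1540 (1.49 ± 0.14, adjusted p = 4.8e-07), with 0.95 in the replicate 1 pair and 1.67 in replicates 2 to 4. Neither gene's groups overlapped. Maff, a small MAF protein that pairs with NRF2 and other factors, rose by 1.35 ± 0.17 (adjusted p = 1.12e-05). The growth factor gene Ereg rose by 1.43 ± 0.16 (adjusted p = 3.22e-06), and Hbegf, which codes for a ligand of the same receptor family, by 0.82 ± 0.08 (adjusted p = 2.38e-07). Egr1, a zinc finger factor of the same class, was at 2920, 4560, 4140 and 4160 in untreated cells and 2970, 3920, 3730 and 3260 at 1000 µM, and was not called (-0.18 ± 0.14, adjusted p = 0.401).

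Myc was among 2 called members of the 10 genes tested of the MYC and MAX network (20%, against 7.61% of all genes higher). Both were higher under all 4 scalings. The Myc signals were 512, 367, 421 and 385 in untreated cells and 1090, 1020, 1090 and 1130 at 1000 µM (1.37 ± 0.09, adjusted p = 5.61e-09). Those of the 100 µM arrays were 840, 716, 706 and 819, below all treated arrays at 1000 µM.

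Signalling inhibitors that are often induced together with early genes moved both ways. Of 13 MAP kinase phosphatase, Sprouty and SPRED genes tested, 2 were higher (15.4%, against 7.61% of all genes) and 4 lower (30.8%, against 14.5%). Under all 4 scalings 2 and 2 of them were called. Dusp1, a nuclear MAP kinase phosphatase, rose by 0.55 ± 0.11 (adjusted p = 0.00121) and Dusp16, which acts on JNK and p38, by 0.49 ± 0.11 (adjusted p = 0.005). Spry1, which restrains receptor tyrosine kinase signalling, fell from 1040, 1090, 949 and 922 to 522, 571, 610 and 503 (-0.86 ± 0.09, adjusted p = 1.68e-06). At 100 µM it was at 438, 510, 486 and 622, and the doses did not differ by the test (0.11 ± 0.09, adjusted p = 0.482). The ERK phosphatase gene Dusp7 fell by 0.60 on the log2 scale (SE 0.13, adjusted p = 0.00228), with 1 of its other probe sets at -0.53 (adjusted p = 0.148).

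Some chemokine and cytokine genes were among the rises, although the list as a whole moved little. Of 18 tested, 7 were higher (38.9%, against 7.61% of all genes), all under all 4 scalings, and 9 were not called. Another 2 were lower, 1 of them under all 4 and 1 with the replicate numbers as a block. The median difference was 0.07 against -0.05 over all genes. Cxcl1, a neutrophil attractant, went from 37.7, 24.2, 25.2 and 6.8 to 177, 203, 174 and 213 (3.27 ± 0.51, adjusted p = 0.000141). Ccl2, which attracts monocytes, went from 77.6, 78.7, 66 and 108 to 249, 450, 422 and 426 (2.21 ± 0.21, adjusted p = 2.89e-07), and Ccl7, its neighbour in function, from 13.1, 47.9, 34.8 and 47 to 95.1, 135, 130 and 163 (2.01 ± 0.32, adjusted p = 0.000194). Groups did not overlap for these 3 genes, but no untreated array reached the 40th percentile for Cxcl1 or Ccl7 and 1 did for Ccl2. None of the 3 differed between 1000 and 100 µM by the test (0.37 to 1.17, adjusted p = 0.0954 to 0.263). Il6 rose by 1.31 ± 0.27 (adjusted p = 0.00187) with overlapping arrays, and Lif, a related cytokine, by 1.04 ± 0.17 (adjusted p = 0.000229). Ptgs2, the inducible cyclooxygenase of prostaglandin synthesis, rose by 1.07 ± 0.15 (adjusted p = 7.22e-05).

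Among 12 NF-kB subunits, inhibitors and targets tested, 2 were higher (16.7%, against 7.61% of all genes), both under all 4 scalings. Another 1 was lower (8.33%, against 14.5%), not under all 4. With the replicate numbers as a block 1 was higher. Nfkbia codes for the inhibitor IkB-alpha and is itself a target of NF-kB. Its signals were 1710, 1720, 1770 and 1970 in untreated cells and 4010, 3910, 3650 and 3790 at 1000 µM (1.10 ± 0.10, adjusted p = 1.47e-07), with 3010, 2700, 2270 and 2600 at 100 µM. Its groups did not overlap, and 2 of the 3 other probe sets of the gene rose by 1.35 and 1.37, while the third was at 0.22 (adjusted p = 0.391).

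Promoter windows of RefSeq (GRCm38.p6), from 250 bases before to 50 after the start of transcription, are shown for 2 of these genes because both hold a match to the kB motif, the DNA sequence read by NF-kB. Capitals mark the match, and lower case the rest, in the direction of transcription.
Cxcl1, chr5:90890995-90891294, plus strand: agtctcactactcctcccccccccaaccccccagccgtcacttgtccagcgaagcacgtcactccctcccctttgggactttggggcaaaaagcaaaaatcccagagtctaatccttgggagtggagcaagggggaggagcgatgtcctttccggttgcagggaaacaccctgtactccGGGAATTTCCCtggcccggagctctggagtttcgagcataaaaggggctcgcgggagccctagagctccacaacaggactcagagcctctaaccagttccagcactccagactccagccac
Nfkbia, chr12:55492598-55492897, minus strand: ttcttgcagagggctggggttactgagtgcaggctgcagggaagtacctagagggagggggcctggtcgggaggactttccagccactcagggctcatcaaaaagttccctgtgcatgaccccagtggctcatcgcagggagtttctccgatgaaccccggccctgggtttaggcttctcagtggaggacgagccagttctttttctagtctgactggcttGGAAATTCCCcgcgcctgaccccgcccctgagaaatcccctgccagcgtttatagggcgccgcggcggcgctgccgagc
In Cxcl1 the capitals cover 2 overlapping matches. Of the 15 genes that rose most, 12 had a window, and 4 of these held the kB motif on either strand (Cxcl1, Fosb, Fos and Nr4a1). Of the 15 that fell most, 11 had a window and 0 held it. The motif occurred in 4.51% of all 32851 windows of this length. The counts are of genes with a match in any window and the percentage is of windows, so they are not like measures. A match is a description of the letters and not of binding.

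Heat shock genes rose most in the inducible HSP70 pair. HSP70 proteins refold damaged protein with the help of HSP40 partners. Of 29 heat shock genes tested, 12 were higher (41.4%, against 7.61% of all genes) and 1 lower (3.45%, against 14.5%). Under all 4 scalings 6 were higher and 0 lower, beside 3.75% and 4.04% of all genes, and the median was 0.20. Hspa1a signals were 133, 190, 172 and 164 in untreated cells, 170, 184, 200 and 207 at 100 µM, and 711, 845, 688 and 738 at 1000 µM. Hspa1b signals were 1930, 1220, 1250 and 1340 in untreated cells, 1270, 1130, 1100 and 1130 at 100 µM, and 3690, 3380, 2790 and 3040 at 1000 µM. In both genes every array at 1000 µM was above all others. The differences from untreated were 2.19 ± 0.16 (adjusted p = 1.02e-08) for Hspa1a and 1.19 ± 0.09 (adjusted p = 1.39e-08) for Hspa1b, and those from 100 µM were 1.97 ± 0.16 and 1.47 ± 0.09 (adjusted p = 9.59e-08 and 1.34e-09). The 2 genes are near-identical copies, so probes may read both. The HSP40 genes Dnajb1 and Dnajb4 rose by 0.50 ± 0.08 (adjusted p = 0.000285) and 0.60 ± 0.11 (adjusted p = 0.000492).

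The promoter windows of Hspa1a and Btg2 are shown with the motifs that name the factors HSF1 and CREB/ATF. The capitals mark the heat shock element core GAANNTTC in the first and the cAMP response element TGACGTCA in the second.
Hspa1a, chr17:34972107-34972406, minus strand: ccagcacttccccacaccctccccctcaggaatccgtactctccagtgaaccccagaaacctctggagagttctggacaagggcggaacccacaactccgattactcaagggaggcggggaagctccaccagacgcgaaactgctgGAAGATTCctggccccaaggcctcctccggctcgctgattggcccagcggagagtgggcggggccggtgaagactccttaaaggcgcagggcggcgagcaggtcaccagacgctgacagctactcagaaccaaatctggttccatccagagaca
Btg2, chr1:134079106-134079405, minus strand: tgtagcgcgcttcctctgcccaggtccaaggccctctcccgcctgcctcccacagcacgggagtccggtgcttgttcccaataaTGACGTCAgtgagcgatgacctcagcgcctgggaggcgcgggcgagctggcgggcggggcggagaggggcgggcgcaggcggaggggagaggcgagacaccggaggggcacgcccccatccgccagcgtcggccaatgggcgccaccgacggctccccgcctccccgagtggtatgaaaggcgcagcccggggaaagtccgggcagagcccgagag
On either strand, GAANNTTC occurred in 7.86% of all windows. Counted by gene, it occurred in 1 of the 12 largest rises with a window (Hspa1a) and 2 of the 11 such falls (Taf1c and Skp2). TGACGTCA occurred in 1.79% of all windows, in 0 of the 12 genes and in 1 of the 11 (Zap70). The CArG box, read by SRF, occurred in 1.63% of all windows and the AP-1 site TGANTCA in 7.81%, and neither in the windows of the largest rises or falls.

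**Figure D2:**
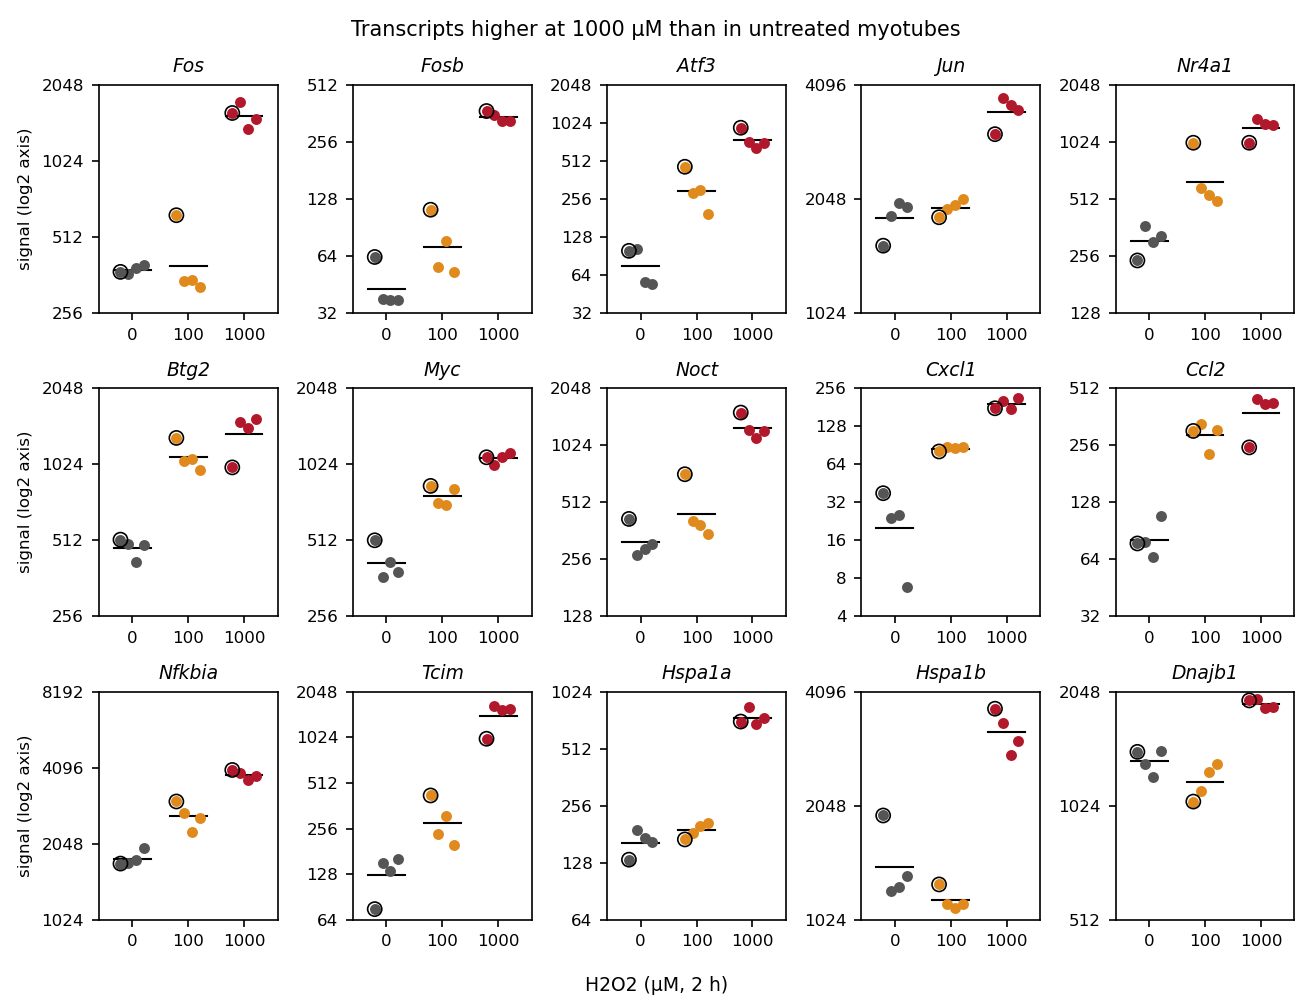
Signal on each array (log2 axis) of 15 transcripts in untreated myotubes (grey), at 100 µM (orange) and at 1000 µM H2O2 (red), 4 arrays each; a line marks the mean of the log2 signals and an open ring the array numbered replicate 1. In every panel all 4 arrays at 1000 µM lie above all 4 untreated arrays, and Jun, Hspa1a, Hspa1b and Dnajb1 are among those high only at 1000 µM.

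Several of the largest rises were outside these groups. Tcim, a small regulator of transcription and immune responses, went from 75.4, 152, 135 and 161 to 1000, 1650, 1540 and 1580 (3.49 ± 0.24, adjusted p = 5.61e-09), with 423, 236, 311 and 199 at 100 µM. Noct, a clock-linked phosphatase that was also listed among mRNA decay factors, went from 418, 271, 289 and 308 to 1520, 1230, 1110 and 1210 (1.99 ± 0.10, adjusted p = 1.25e-10). Both were higher at 1000 than at 100 µM, by 2.34 ± 0.24 (adjusted p = 1.74e-06) and 1.5 ± 0.10 (adjusted p = 9.4e-09). Zfp36, which codes for the decay factor tristetraprolin that destabilises cytokine and early gene mRNAs, rose from 366, 332, 334 and 362 to 607, 599, 581 and 562 (0.75 ± 0.09, adjusted p = 7.24e-06). Slc19a2, a thiamine transporter, rose by 1.60 ± 0.11 (adjusted p = 5.61e-09) and was lower than at 100 µM (-0.55 ± 0.11, adjusted p = 0.00206). The transcripts 2610528A11Rik, Gzmm (granzyme M) and Rnf225 (a RING finger protein) rose by 3.55 ± 0.59, 2.63 ± 0.47 and 2.27 ± 0.26 from signals that reached the 40th percentile on no untreated array. In Gzmm the replicate 1 pair differed by 0.60 and replicates 2 to 4 by 3.31.

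Of 20 hypoxia response genes tested, 8 were higher (40%, against 7.61% of all genes), 5 of them under all 4 scalings, and 0 lower. Adm, a vasodilator peptide, rose by 1.55 ± 0.28 (adjusted p = 0.000586) from a dim signal. Slc2a1, the basal glucose transporter, rose from 1350, 990, 1130 and 1130 to 1940, 1510, 1450 and 1480 (0.47 ± 0.06, adjusted p = 1.29e-05), with 1 of its other probe sets at 0.28 (adjusted p = 0.103). Bnip3, a mitophagy receptor, was called at 0.46 ± 0.10 (adjusted p = 0.00337), with -0.10 in the replicate 1 pair, 0.65 in replicates 2 to 4 and overlapping arrays.

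p53 is stabilised by DNA damage and induces genes of cell cycle arrest and repair. Of 29 p53 targets tested, 12 were higher (41.4%, against 7.61% of all genes) and 2 lower (6.9%, against 14.5%). Under all 4 scalings 11 and 1 were called, beside 3.75% and 4.04% of all genes, and the median was 0.20. Against 100 µM, 0 of the 29 were higher and 8 lower, beside 2.96% and 8.6% of all genes. Plk2, a stress-induced Polo-like kinase, went from 1830, 1880, 1880 and 1760 to 3740, 3870, 3960 and 3790 (1.07 ± 0.07, adjusted p = 3.8e-09). Mdm2, the ubiquitin ligase that limits p53, went from 1360, 1320, 1200 and 1310 to 2930, 2490, 2640 and 2450 (1.01 ± 0.11, adjusted p = 3.22e-06). Psrc1, a microtubule-associated p53 target, rose by 1.22 ± 0.10 (adjusted p = 4.88e-08). The differences of these 3 genes from 100 µM were 0.14 ± 0.07, -0.32 ± 0.11 and 0.17 ± 0.10 (adjusted p = 0.203, 0.0754 and 0.296). Trp53inp1, a p53 cofactor and target, rose by 0.93 ± 0.12 (adjusted p = 1.59e-05) but was lower than at 100 µM (-0.76 ± 0.12, adjusted p = 0.000335), and its other probe set was at 0.35 (adjusted p = 0.423). The cyclin-dependent kinase inhibitor gene Cdkn1a, abundant in untreated myotubes at 4410, 6760, 6560 and 5860, was at 6030, 6980, 7100 and 6740 and was not called (0.20 ± 0.08, adjusted p = 0.0562). It was called under both median scalings (adjusted p = 0.00766 and 0.0117), but with quantile normalisation the difference was 0.00 (adjusted p = 0.967). From replicates 2 to 4 only the adjusted p was 0.236, and its other probe set was at -0.09 (adjusted p = 0.529).

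ATF4 targets moved both ways, with more of them higher than lower, and Atf3, given above, was the largest rise among them. Of 34 ATF4 and amino-acid response genes tested, 11 were higher (32.4%, against 7.61% of all genes) and 3 lower (8.82%, against 14.5%). Under all 4 scalings 8 and 1 were called, and the median was 0.16. Against 100 µM, 1 was higher and 11 lower, beside 2.96% and 8.6% of all genes. Ppp1r15a, the phosphatase subunit that ends the integrated stress response, rose from 415, 396, 355 and 442 to 855, 902, 859 and 817 (1.10 ± 0.12, adjusted p = 2.4e-06). Sesn2, a stress sensor that restrains mTORC1, rose by 0.86 ± 0.21 (adjusted p = 0.00573), and Ddit3, which codes for CHOP, by 0.58 ± 0.10 (adjusted p = 0.000276), and both were lower than at 100 µM, by -0.77 ± 0.21 and -0.53 ± 0.10 (adjusted p = 0.0198 and 0.0011). Chac1, an enzyme that degrades glutathione, was 1 of the 3 that were lower. Its signals were 961, 819, 763 and 898 in untreated cells, 2520, 1800, 1570 and 1710 at 100 µM, and 508, 374, 382 and 321 at 1000 µM. The 3 groups did not overlap, and the level at 1000 µM was below both, by a log2 difference of -1.13 ± 0.08 from untreated (adjusted p = 1.39e-08) and -2.26 ± 0.08 from 100 µM (adjusted p = 3.61e-13).

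NRF2 induces genes of glutathione and thioredoxin metabolism, NADPH supply and haem breakdown. Of 23 tested, 4 were higher (17.4%, against 7.61% of all genes), 3 under all 4 scalings, and 0 lower, with a median of 0.15. The count higher was 15 with the median of all probe sets, 10 with that of tested probe sets and 4 with quantile normalisation. Over all 8163 genes the counts higher under these scalings were 2158, 1547 and 488, beside 621 in the main fit. Against 100 µM, 1 was higher and 12 lower, beside 2.96% and 8.6% of all genes. Hmox1, haem oxygenase 1, had signals of 484, 376, 422 and 359 in untreated cells, 1640, 1290, 1760 and 1680 at 100 µM, and 879, 1290, 1210 and 1130 at 1000 µM. It rose by 1.45 ± 0.12 (adjusted p = 4.33e-08), 0.86 in the replicate 1 pair and 1.65 in replicates 2 to 4, and was lower than at 100 µM (-0.50 ± 0.12, adjusted p = 0.00859). Osgin1, which codes for a growth inhibitor named for its induction by oxidants, rose by 1.28 ± 0.19 (adjusted p = 9.5e-05) and was -0.65 ± 0.19 against 100 µM (adjusted p = 0.0316). Tkt, an enzyme of the pentose phosphate pathway, was called at 0.40 ± 0.11 (adjusted p = 0.0177), but not from replicates 2 to 4 only (adjusted p = 0.0667), nor without untreated replicate 1 (0.0732) or 1000 µM replicate 3 (0.0688), and another of its probe sets differed by 0.01.

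Genes of glutathione and thioredoxin metabolism that were high at 100 µM were closer to untreated values at 1000 µM. Srxn1, which reduces over-oxidised peroxiredoxins, had signals of 529, 267, 304 and 304 in untreated cells, 833, 836, 836 and 833 at 100 µM, and 461, 342, 372 and 362 at 1000 µM. The difference from untreated was 0.18 ± 0.12 (adjusted p = 0.314) and that from 100 µM was -1.13 ± 0.12 (adjusted p = 3.39e-06). Another of its probe sets was called higher than untreated (0.29 ± 0.09, adjusted p = 0.0202). The untreated array that overlapped the treated ones was replicate 1, without which the adjusted p was 0.0268. Gclc, the catalytic subunit for glutathione synthesis, had 701, 496, 577 and 587 in untreated cells, 1050, 1170, 1130 and 939 at 100 µM, and 536, 459, 456 and 441 at 1000 µM (-0.31 ± 0.12 from untreated, adjusted p = 0.0641; -1.18 ± 0.12 from 100 µM, adjusted p = 1.69e-06). Its partner Gclm differed from untreated by 0.19 ± 0.15 (adjusted p = 0.384) and from 100 µM by -0.67 ± 0.15 (adjusted p = 0.00686). Thioredoxin reductase 1, Txnrd1, was 0.21 ± 0.08 above untreated (adjusted p = 0.0517) and -0.59 ± 0.08 against 100 µM (adjusted p = 3.78e-05). Against untreated, its adjusted p was 0.00452 and 0.00626 under the median scalings and 0.143 with quantile normalisation. The other 2 probe sets of Txnrd1 were at -0.08 and -0.13 (adjusted p = 0.549 and 0.665). The glutathione transferase gene Gsta4 was at 0.27 ± 0.11 (adjusted p = 0.0859) and -0.78 ± 0.11 (adjusted p = 0.000135), and passed the test against untreated under the other 3 scalings (adjusted p = 0.00406, 0.0106 and 0.0098). The quinone reductase gene Nqo1 was at -0.20 ± 0.13 (adjusted p = 0.294) and -0.43 ± 0.13 (adjusted p = 0.0377).

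**Figure D3:**
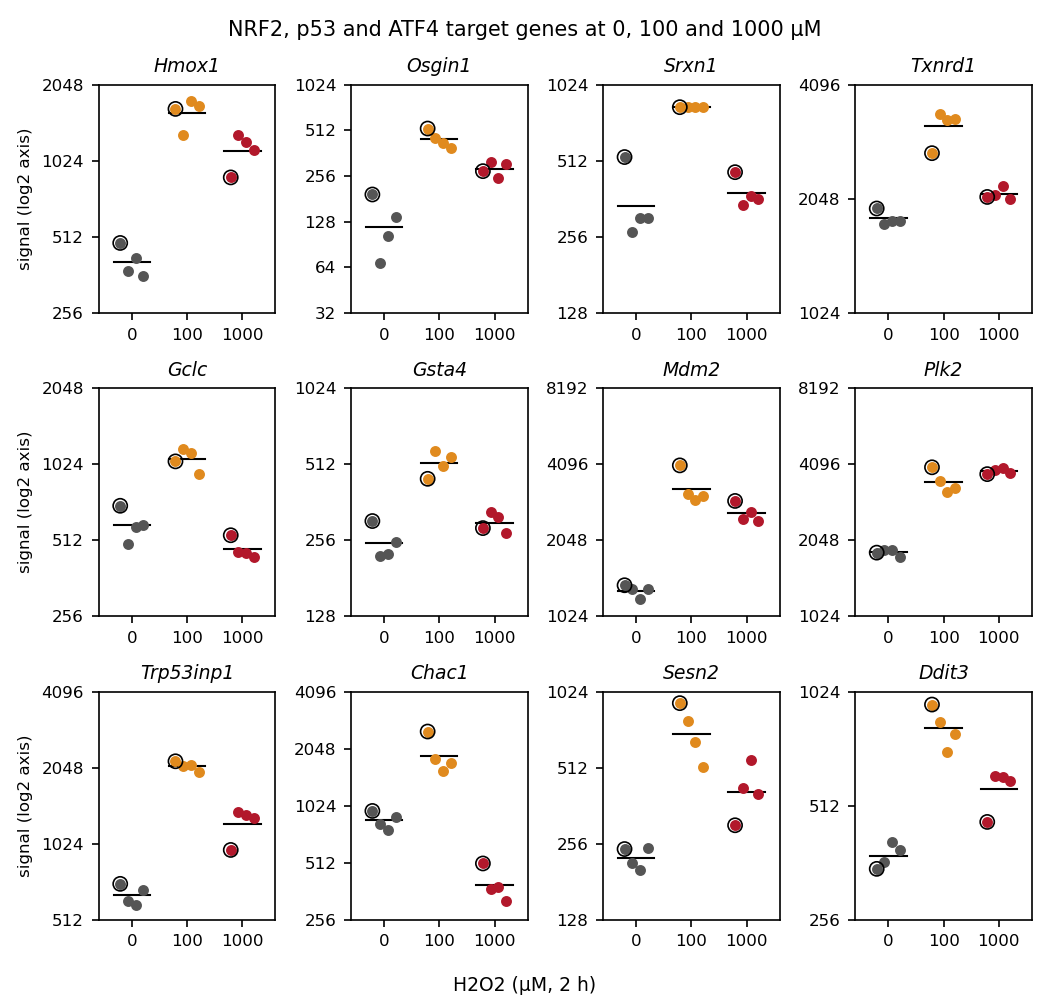
Signal on each array (log2 axis) of 12 targets of NRF2, p53 and ATF4 in untreated myotubes (grey), at 100 µM (orange) and at 1000 µM H2O2 (red); lines are means of log2 signals and open rings the arrays numbered replicate 1. Srxn1, Txnrd1, Gclc and Gsta4 are high at 100 µM and closer to untreated at 1000 µM, and Chac1 is above untreated at 100 µM and below it at 1000 µM.

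Other antioxidant enzymes were called higher in a larger share than all genes, but by small amounts. Of 16 tested, 7 were higher (43.8%, against 7.61% of all genes), 3 under all 4 scalings, and 0 lower. The differences ran from -0.03 to 0.32, with a median of 0.20 against -0.05 over all genes. With quantile normalisation 3 were higher, and without the term for replicate 1 the count was 1, beside 488 and 215 of all 8163 genes.

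Among the falls, Edn1, which codes for the peptide endothelin 1 and was listed with the cytokines, had the largest. Its signals were 96.8, 143, 133 and 154 in untreated cells, 65.9, 79.8, 97.8 and 64 at 100 µM, and 11.3, 14.1, 11.3 and 14.5 at 1000 µM (-3.35 ± 0.25, adjusted p = 1.39e-08). The groups did not overlap, and no treated array reached the 40th percentile, so the size of the fall depends on a dim signal.

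Ccnf, cyclin F, a substrate receptor of SCF ubiquitin ligases, fell from 331, 256, 290 and 298 to 83.8, 75.2, 125 and 114 (-1.59 ± 0.15, adjusted p = 5.16e-07). Only 2 of its 4 treated arrays reached the 40th percentile. Skp2, the F-box protein that targets the inhibitor p27, fell from 600, 393, 435 and 462 to 246, 204, 166 and 177 (-1.25 ± 0.20, adjusted p = 0.000168), and its other 5 probe sets fell too (-0.66 to -1.18). Ccnj, a cyclin of unsettled function, fell by 1.48 on the log2 scale (SE 0.24, adjusted p = 0.000193) and Etaa1, an activator of the checkpoint kinase ATR, fell as well, at -1.5 ± 0.25 (adjusted p = 0.000342), but no treated array of either gene reached the 40th percentile, so the sizes depend on dim signals. The markers of cycling cells as a whole did not move one way. Of 38 tested, 6 were higher (15.8%, against 7.61% of all genes) and 7 lower (18.4%, against 14.5%), 2 and 4 under all 4 scalings. Their median was 0.00, and their summed signal was 40650 to 43580 in untreated arrays and 40770 to 48380 at 1000 µM. The mitotic kinesin gene Kif18a fell by 0.85 on the log2 scale (SE 0.20, adjusted p = 0.00472), with 2 of 4 treated arrays at the 40th percentile or above.

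The other largest falls were of mixed function. Clk2, a kinase of splicing factors, fell from 498, 471, 488 and 477 to 208, 215, 211 and 180 (-1.25 ± 0.09, adjusted p = 1.35e-08), as did Clk1 (-0.44 ± 0.08, adjusted p = 0.000698; 0.0955 with the median of all probe sets). Snai2, a zinc finger repressor expressed in myoblasts, fell from 469, 626, 632 and 581 to 181, 230, 292 and 262 (-1.27 ± 0.21, adjusted p = 0.000336). G0s2, an inhibitor of triglyceride lipolysis, fell from 773, 809, 933 and 906 to 453, 384, 284 and 344 (-1.24 ± 0.13, adjusted p = 1.99e-06). None of these 3 had overlapping groups. Atp8b2, a phospholipid flippase, Taf1c, a subunit of the RNA polymerase I selectivity factor, the zinc finger gene Zfp574 and the homeobox gene Hoxc8 fell, with differences of -1.79 ± 0.32, -1.40 ± 0.25, -1.32 ± 0.15 and -1.26 ± 0.18, but only 1 of the 4 treated arrays of Taf1c, and 2 each of Atp8b2 and Hoxc8, reached the 40th percentile. Zap70, a kinase known from T cells, fell (-1.76 ± 0.38) and the sulfate transporter gene Slc26a2 likewise (-1.22 ± 0.27), but another probe set of each gene did not pass the test (-0.51, adjusted p = 0.122, and -0.25, adjusted p = 0.462), and the arrays of Slc26a2 overlapped.

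Most Notch genes tested were lower. Notch receptors and their ligands act between neighbouring cells and hold muscle precursors undifferentiated. Of 15 receptors, ligands, Fringe and HES genes tested, 9 were lower (60%, against 14.5% of all genes), 3 of them under all 4 scalings. None was higher, and their median was -0.36 against -0.05 over all genes. With the median of all probe sets 3 were lower and with quantile normalisation 6, beside 360 and 603 of all 8163 genes. Lfng, the glycosyltransferase that tunes Notch receptors, fell from 113, 174, 160 and 177 to 86, 48.4, 61.8 and 62 (-1.28 ± 0.23, adjusted p = 0.000494). The ligand gene Dll1 fell from 406, 362, 393 and 353 to 254, 229, 241 and 241 (-0.65 ± 0.10, adjusted p = 9.93e-05), and the coactivator gene Maml1 from 499, 499, 499 and 615 to 320, 372, 305 and 304 (-0.70 ± 0.10, adjusted p = 7.75e-05), with another Maml1 probe set at -0.35 (adjusted p = 0.0991). No treated array of these 3 genes reached an untreated one, but only 1 of the 4 treated arrays of Lfng reached the 40th percentile. The target gene Hes1 fell by 0.36 on the log2 scale (SE 0.08, adjusted p = 0.00466), but not with the median of all probe sets (adjusted p = 0.183).

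Single genes of growth factor and cytokine signalling were also among the falls. Irs1, the adaptor of insulin and IGF receptors, fell from 1420, 1700, 1640 and 1740 to 836, 966, 973 and 983 (-0.79 ± 0.09, adjusted p = 6.11e-06). The IGF signalling list did not stand far from all genes. Of 14 tested, 1 was higher and 3 lower (21.4%, against 14.5% of all genes), 1 and 1 under all 4 scalings. Its median difference was -0.10 against -0.05 over all genes. Foxo1, a transcription factor of the atrophy programme restrained by that pathway, fell from 813, 556, 513 and 496 to 331, 310, 364 and 317 (-0.82 ± 0.11, adjusted p = 4.05e-05), with its other 2 probe sets at -0.36 (adjusted p = 0.0207) and -0.21 (adjusted p = 0.278). Fbxo32, the muscle ubiquitin ligase atrogin-1 that FOXO proteins induce, fell by 0.65 on the log2 scale (SE 0.14, adjusted p = 0.00278) with overlapping arrays. Of 13 SOCS and STAT genes, 1 was higher (7.69%, against 7.61% of all genes) and 5 lower (38.5%, against 14.5%), 1 and 3 under all 4 scalings. The suppressor genes Socs6 and Socs5 fell (-0.76 ± 0.09, adjusted p = 1.27e-05, and -0.70 ± 0.13, adjusted p = 0.00106), with another Socs6 probe set at -0.55 (adjusted p = 0.0663).

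**Figure D4:**
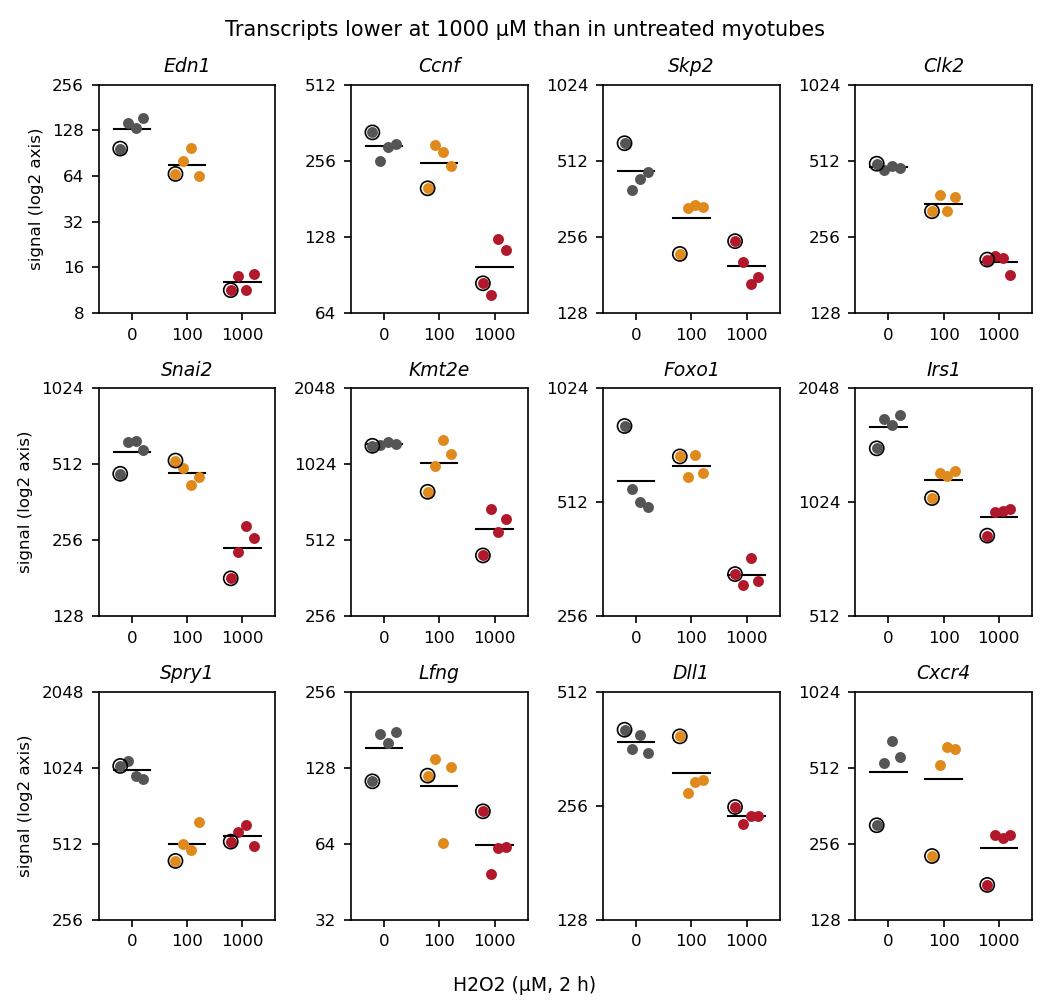
Signal on each array (log2 axis) of 12 transcripts that were lower at 1000 µM (red) than in untreated myotubes (grey), with 100 µM in orange; lines are means of log2 signals and open rings the arrays numbered replicate 1. No array at 1000 µM reaches an untreated array of the same gene, and the arrays of Spry1 at 100 and 1000 µM lie in the same range.

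Chromatin regulators and ubiquitin-specific proteases were lower in larger shares than all genes, although fewer calls held under every scaling. Of 63 chromatin modifying and remodelling genes tested, 24 were lower (14.5% of all genes were) and 1 higher, 6 and 1 under all 4 scalings, with a median of -0.27. Kmt2e, a PHD and SET domain protein of the trithorax family, fell from 1210, 1220, 1250 and 1230 to 446, 679, 551 and 619 (-1.11 ± 0.09, adjusted p = 4.33e-08). Cbx2, a Polycomb subunit that binds methylated histone H3, fell from 351, 247, 263 and 330 to 165, 153, 162 and 153 (-0.90 ± 0.12, adjusted p = 4.05e-05). Of 31 ubiquitin-specific proteases, 15 were lower and 0 higher, 5 of them under all 4 scalings, with a median of -0.26. Usp9x fell by 0.58 on the log2 scale (SE 0.09, adjusted p = 0.00022), as did its other 6 probe sets (-0.52 to -1.21). Usp12 and Usp38 fell as well (-0.70 ± 0.14 and -0.51 ± 0.11), with 1 of the other probe sets of Usp12 at -0.34 (adjusted p = 0.281).

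Basal transcription and Mediator subunits did not stand apart from all genes in counts: 3 of 55 were higher (1 with the replicate numbers as a block) and 8 lower, 1 and 3 under all 4 scalings, with a median of -0.01. Named falls were Taf4, a TFIID subunit (-0.84 ± 0.09, adjusted p = 3.22e-06), Med23, a Mediator subunit (-0.60 ± 0.13, adjusted p = 0.00284), and Tbp, the TATA-binding protein (-0.43 ± 0.10, adjusted p = 0.00428; 0.0999 with the median of all probe sets and 0.0534 with quantile normalisation). Polr2a, the largest subunit of RNA polymerase II, had 983, 1510, 1590 and 1590 in untreated cells and 599, 1070, 903 and 1060 at 1000 µM (-0.65 ± 0.07, adjusted p = 1.54e-06). Its groups overlapped because untreated replicate 1 was low, and without the term for replicate 1 the adjusted p was 0.0991. Of 56 splicing regulators, 7 were higher (12.5%, against 7.61% of all genes) and 6 lower (10.7%, against 14.5%), 4 and 1 under all 4 scalings. Tra2b, an SR-like splicing activator, rose by 0.40 ± 0.06 (adjusted p = 5.68e-05).

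Muscle genes changed by smaller amounts. To check the labelled cell type, 13 myotube markers were examined. All 13 were bright enough to be tested and 0 were lower: 3 were higher, 0 of them under all 4 scalings, and their summed signal was 73990 to 92470 in untreated arrays and 97120 to 103200 at 1000 µM. Myog, the factor of terminal differentiation, was at 6440, 6630, 6610 and 6480 in untreated cells and 8050, 6800, 6940 and 7280 at 1000 µM (0.15 ± 0.06, adjusted p = 0.0994). Its adjusted p was 0.0106 and 0.0157 under the median scalings, and with quantile normalisation the difference was -0.09 (adjusted p = 0.171). Of 14 myogenic regulators tested, 4 were lower (28.6%, against 14.5% of all genes), 0 under all 4 scalings. Myod1, the determination factor of myoblasts, fell from 2220, 1980, 1920 and 1960 to 1540, 1430, 1300 and 1420 (-0.51 ± 0.10, adjusted p = 0.000974; 0.0511 with the median of all probe sets), and at 100 µM it was at 1010, 1470, 1150 and 1360. Of 9 acetylcholine receptor and synapse genes, 4 were lower (44.4%, against 14.5% of all genes), 0 under all 4 scalings. Musk, the receptor kinase of the neuromuscular synapse, was called at -0.59 ± 0.15 (adjusted p = 0.00807), but not from replicates 2 to 4 only (0.0505), without the term (0.0659) or with quantile normalisation (0.0528).

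Of 48 contractile and sarcomere genes, 6 were higher (12.5%, against 7.61% of all genes) and 5 lower (10.4%, against 14.5%), 1 and 3 under all 4 scalings. The fast myosin gene Myh4 fell by 0.66 on the log2 scale (SE 0.13, adjusted p = 0.000966) with overlapping arrays. Myot, a Z-disc protein, fell too (-0.56 ± 0.12, adjusted p = 0.00279), as did Ldb3, which anchors at the Z-disc (-0.43 ± 0.07, adjusted p = 0.000243). However, 2 other probe sets of Ldb3 were at -0.03 and -0.21 and did not pass the test. Ttn, the giant spring of the sarcomere, rose by 0.54 ± 0.10 (adjusted p = 0.000811) with overlapping arrays, and without the term for replicate 1 its adjusted p was 0.153.

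Abundant housekeeping groups were higher in larger shares than all genes (7.61%), but their calls depended on the scaling. Shares higher were 54.8% of cytosolic ribosomal proteins, 28.4% of oxidative phosphorylation subunits, 33.3% of proteasome subunits and 41.2% of glycolytic genes. Of 42 cytosolic ribosomal protein genes tested, 23 were higher and 1 lower (19 and 0 with the replicate numbers as a block), 0 in either direction under all 4 scalings, with a median of 0.29. With quantile normalisation 2 were higher and from replicates 2 to 4 only 2 were, beside 488 and 459 of all 8163 genes. Rps3 and Rps14 were called at 0.43 ± 0.10 and 0.39 ± 0.10 (adjusted p = 0.00629 and 0.0124), but not with quantile normalisation (0.12 and 0.111), and Rps14 also not from replicates 2 to 4 only (0.106), without untreated replicate 1 (0.0637) or without 1000 µM replicate 1 (0.0645). Oxidative phosphorylation had 21 of 74 subunits higher and 0 lower, 3 higher under all 4 scalings, among them Uqcrc1 of complex III at 0.43 ± 0.09 (adjusted p = 0.00127) and Cox6a1 of complex IV at 0.36 ± 0.07 (adjusted p = 0.00163). Proteasome subunits were higher in 13 of 39 and lower in 1, with 1 higher under all 4 scalings, and glycolytic genes were higher in 7 of 17, 3 of them under all 4. These lists hold bright probe sets, which moved up as a class in the trimmed-mean scaling; the part of that shift in these counts was not tested.

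**Figure D5:**
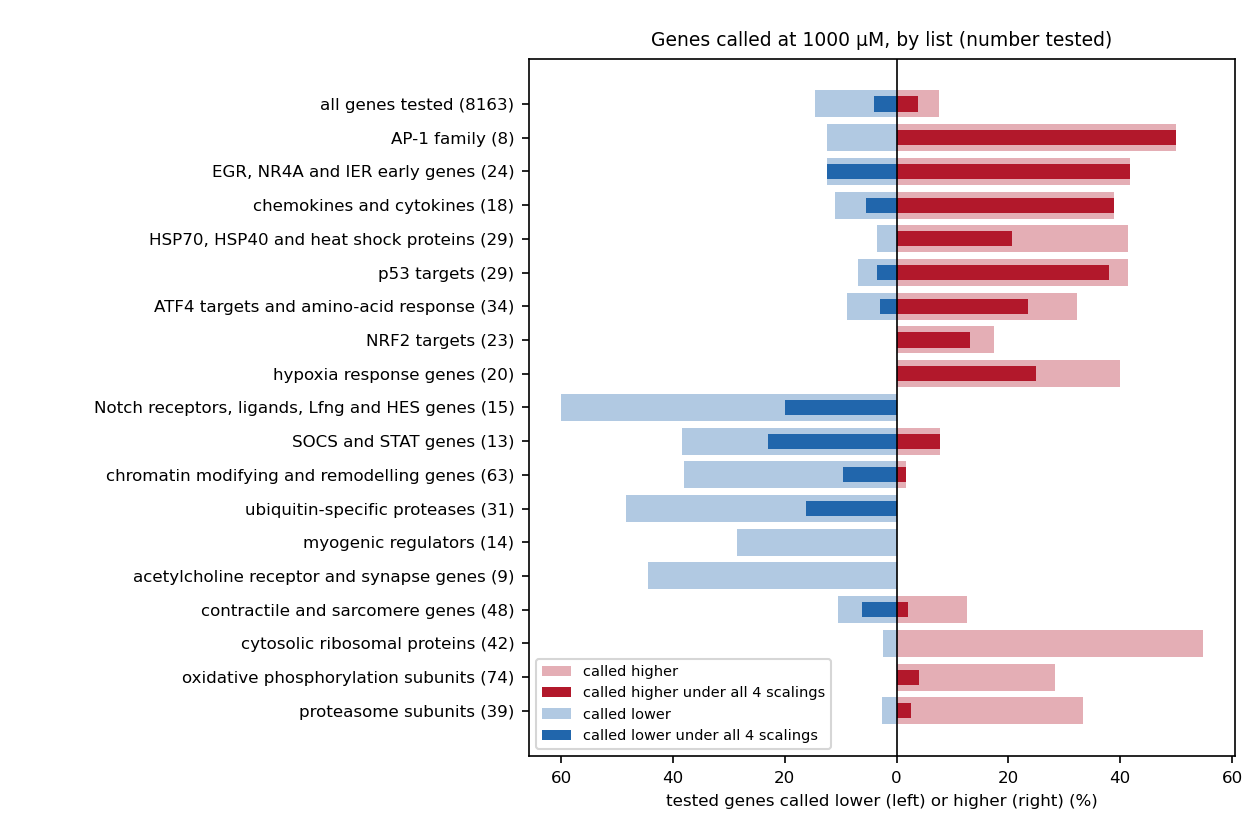
Share of tested genes called higher (right, red) and lower (left, blue) at 1000 µM in 18 gene lists and over all genes tested, with the number tested in brackets; pale bars are calls in the trimmed-mean scaling and dark inner bars are calls that hold under all 4 scalings. Early genes, chemokines and p53 targets keep most of their higher calls across scalings, and ribosomal proteins keep none.

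Markers of other cells that a myotube culture can hold gave no common shift. Of 21 fibroblast and matrix genes tested, 3 were higher (14.3%, against 7.61% of all genes) and 1 lower (4.76%, against 14.5%). Of these, 1 was higher under all 4 scalings. The summed signal of the list was 81850 to 119300 in untreated arrays and 110900 to 130100 at 1000 µM. Quiescent reserve and satellite cells are undifferentiated cells that remain beside myotubes. Of 13 of their genes tested, 4 were lower (30.8%, against 14.5% of all genes), 3 under all 4 scalings. Their summed signal was 13500 to 15950 in untreated arrays and 14190 to 14680 at 1000 µM. The chemokine receptor gene Cxcr4 fell from 303, 532, 653 and 562 to 176, 277, 270 and 277 (-1.01 ± 0.11, adjusted p = 2.44e-06; 0.0599 without the term for replicate 1), Rbl2, a pocket protein of quiescence, fell by 0.49 on the log2 scale (SE 0.08, adjusted p = 0.000271), and Spry1 is given above. The defining genes Pax7 and Pax3 did not reach the level needed for testing. Few genes of adipocytes, bone and leukocytes were bright enough to be tested, 3 of 12, 2 of 12 and 4 of 13 listed, and 1 of them was called (an adipocyte gene, lower). The part of these cells in the gene groups above was not tested.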

How the data were processed

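Deposited values are linear signal intensities per probe set, which the authors made with Affymetrix Microarray Suite 5.0, as the submitters' processing notes and design text name it. The 2% trimmed mean of each deposited array was 500.1 to 500.2. Groups came from the sample titles. Signals were rescaled to that trimmed mean, floored at 1 and taken to log2. Of 22690 probe sets, 64 controls were left out, and 14387 with signals at or above the 40th percentile on 4 or more of the 20 arrays were tested. In the platform annotation 20393 probe sets had 1 gene symbol, 691 several and 1606 none. Differences were tested with limma 3.58.1 (R 4.3.3; lmFit, eBayes with intensity trend, two-sided) on 19 arrays of all 5 doses, with a term for arrays numbered 1; a 10 µM array with no number in its title was left out. Detection calls were not used here.

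Deviations of same-numbered arrays of both groups from their group means had correlations over probe sets of 0.513, 0.195, 0.185 and 0.204. The highest correlation with an array of another number was -0.304, 0.215, 0.199 and 0.176, so only replicate 1 stood clearly apart. Within replicates 2 to 4 the same-number correlations were 0.0109, -0.021 and 0.0348. The numbers, which come from the titles, were used to pair all arrays in an alternative fit only, and the main fit held only the term for replicate 1.

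Named genes were first the 15 largest rises and 15 largest falls among called genes. A gene had to reach the 40th percentile on at least 3 of 4 arrays of a group. It also had to move alike in the replicate 1 pair and replicates 2 to 4, and these conditions left out 5 larger changes. In each gene list, up to 4 called members of largest difference could be named, or any where 5 or fewer were called. Not all of these members are named. Members that were not called are named where the text gives their role. Ddit3, Hbegf, Hes1, Il6, Lif, Mdm2, Ptgs2 and Trp53inp1 are outside this rule and were chosen after their values were seen. The comparison, its genes and the 47 lists were chosen with earlier results of these data known.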

Additional observations from a re-analysis of the deposited data

Results flagged for a closer look

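In 226 groups of 4 arrays, of the genes named above and 5 array measures, 19 had an array far from the other 3 by Dixon's ratio, above its 95% critical value. Chance flags about 1 group in 20. The distant array was numbered 1 in 15 of the 19 cases.

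At 1000 µM, replicate 1 was low in Tcim (1000, others 1540 to 1650), Gzmm (113, others 203 to 222), Ccl2 (249, others 422 to 450), Cxcr4 (176, others 270 to 277), Ddit3 (464, others 594 to 614) and Irs1 (836, others 966 to 983). It was high there in Lif (403, others 309 to 321), Psrc1 (804, others 607 to 622) and Slc2a1 (1940, others 1450 to 1510).

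In untreated cells, replicate 1 was high in Fosb (63.1, others 37.5 to 37.9), Ereg (536, others 231 to 259), Fosl1 (662, others 225 to 255) and Musk (467, others 328 to 341), and low in Cox6a1 (4400, others 5900 to 6070) and Polr2a (983, others 1510 to 1590).

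The remaining 4 distant arrays had other numbers. Ereg was low in replicate 3 at 1000 µM (684, others 841 to 861), Maml1 high in untreated replicate 4 (615, the others all 499) and Uqcrc1 high in replicate 2 at 1000 µM (3780, others 2950 to 3020). The median log2 signal of tested probe sets was low in replicate 3 at 1000 µM (8.663, others 8.679 to 8.681).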

How the results depend on the processing

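The 30 genes of largest change kept their call under each of the 22 alternatives run. They were chosen as called, large and alike in the replicate 1 pair and replicates 2 to 4, so this stability is partly built in. Of the 51 genes over 1.75-fold higher, 40 stayed called without the term for replicate 1 and 42 without 1000 µM replicate 1. Of the 85 over 1.75-fold lower, 78 stayed called without the term and 77 with quantile normalisation. The main counts of probe sets against untreated were 1024 higher and 2239 lower. They were 354 and 1220 without the term for replicate 1, 3433 and 734 with the median of all probe sets, 2498 and 1133 with the median of tested probe sets, 1057 lower with quantile normalisation, 1549 higher with array weights, 73 and 192 by the authors' crossed rule as rebuilt from signals, 78 and 216 when a 1.75-fold change was also asked, and 476 and 652 when all 4 scalings had to call. At an unadjusted p under 0.05 they were 1737 and 3414. Leaving out 1 array gave 583 to 965 higher and 1608 to 2031 lower; the lowest higher counts came without untreated replicate 1 (583) and 1000 µM replicate 1 (627). Against 100 µM the counts were 419 and 1239, 107 and 518 without the term, 695 higher with only the groups compared, 1052 and 504 with the median of all, 912 and 708 with the median of tested, 761 lower with quantile, 925 and 2047 with array weights, 36 and 138 by the crossed rule, 35 and 147 with the fold rule, 481 lower under all scalings, and 217 to 373 and 775 to 1069 without 1 array; of the higher counts, those without replicate 1 of either group (217 and 247), replicate 4 of either group (262 and 256) or 1000 µM replicate 2 (239), and of the lower counts the one without 100 µM replicate 1 (775), differed from the main count by over 1.5 times. The cause of these changes was not tested. The difference of array medians was -0.172 from replicates 2 to 4, where 3 against 3 arrays cannot reach significance.

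With the replicate numbers as a block in the pairing fit, 844 probe sets were higher and 2010 lower, and no named gene lost its call. Counting under all 4 scalings and at unadjusted p were chosen after seeing the data. No detection calls were used, so dim signals are limited by their level alone: of the 30 genes, 10 rises and 10 falls had signals below the 40th percentile on at least 1 array.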

Other observations

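Genes whose symbol is Zfp with a number, a naming rule for zinc finger proteins of which many are repressors with a KRAB domain, were lower in a large share. This list was made after such genes were seen among the falls, so its counts are a description. Of 107 tested, 44 were lower (41.1%, against 14.5% of all genes) and 2 higher (1.87%, against 7.61%), 25 and 1 under all 4 scalings. Their median was -0.35 against -0.05 over all genes. Against 100 µM, 40 were lower and 2 higher, beside 8.6% and 2.96% of all genes. Zfp386 fell from 443, 408, 405 and 438 to 179, 170, 214 and 215 (-1.13 ± 0.10, adjusted p = 2e-07), and its groups did not overlap. Zfp51, Zfp503 and Zfp955a fell too (-1.16 ± 0.14, -1.03 ± 0.14 and -0.94 ± 0.11), but no treated array of Zfp51 reached the 40th percentile. Genes of this class share sequence, so probe sets may read more than 1 of them.

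Other groups are given as counts, beside 7.61% of all genes higher and 14.5% lower. Under all 4 scalings the shares of all genes were 3.75% and 4.04%. Of 20 genes of the BCL2 family and cell death, 3 were higher (15%) and 0 lower, all 3 under all 4 scalings. Of 71 mitochondrial ribosomal protein genes, 4 were higher, all under all 4 scalings, and 1 lower, beside 7.61% and 14.5% of all genes. Of 50 ribosome biogenesis genes, 7 were higher and 6 lower (5 and 0 under all 4), of 45 DNA repair and checkpoint genes 3 and 6 (1 and 1), of 25 ID, SMAD and BMP feedback genes 2 and 4 (2 and 1), and of 22 mRNA decay factors 3 and 5 (3 and 1). Of 24 endoplasmic reticulum chaperones and stress genes 4 were higher and 5 lower (0 and 1 under all 4). Of 22 cyclins and cyclin-dependent kinase inhibitors 3 and 3 were called (1 and 2), of 22 cholesterol genes 1 and 3 (0 and 0), and of 16 clock genes 3 and 1 (2 and 0). Of 12 Kruppel-like factors 2 were higher and 2 lower (16.7% each way), and of 10 FOXO factors and atrophy genes 2 and 2 (20% each way). In both lists these calls held under all 4 scalings. Of 9 histone genes 2 were higher and 0 lower (1 and 0), and of 4 metallothionein and zinc response genes 2 and 0 (0 and 0).

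Probe sets of a gene did not always move together. For 19 genes 1 probe set was called higher and another lower: Acp1, Cox6c, Gas5, Gnas, Hnrnpa2b1, Hnrnpdl, Marveld1, Nisch, Pabpn1, Rpl41, Rps24, Sec61a1, Serbp1, Sfpq, Sh3glb1, Snhg1, Srsf3, Tpm1 and Vcp. Several code for RNA-binding proteins or host small RNAs. Which part of each transcript these probe sets read was not examined.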
